A study of Drosophila melanogaster with 37 samples.

Results

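MSL3 occupancy was compared directly between S2 cells given RNAi against CLAMP and S2 cells given RNAi against GAF, without a control library in the contrast. The material is 6 of the 37 samples of a ChIP-seq study, namely the MSL3 immunoprecipitations of CLAMP RNAi (replicates 1, 2 and 3) and of GAF RNAi (replicates 1, 2 and 3). They were chosen by their labels alone, and all 6 have a deposited list of broad MSL3 regions among the 25 samples of the series that have a peak list. On the chromosome arms 2L, 2R, 3L, 3R, 4 and X the 6 lists together hold 87980 regions. S2 is an established male Drosophila melanogaster cell line. All cells received dsRNA at 4.5 ug/mL, directed against CLAMP in the CLAMP RNAi group and against GAF, the product of the trl gene, in the GAF RNAi group. Cells given dsRNA against GFP are the study's control and serve here only to define landmarks. Nothing in the labels says that replicates came from separate cultures, so p values measure the spread between these libraries, which may be technical.

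In male flies the MSL complex, a ribonucleoprotein of MSL proteins and roX RNAs, binds the single X chromosome and acetylates histone H4 at lysine 16 over active genes, which raises their transcription. It first loads at GA-rich entry sites on X and then reaches neighbouring genes, where MSL3, the chromodomain subunit, helps the complex recognise transcribed chromatin marked by H3K36 methylation. CLAMP is the zinc-finger protein that binds the GA-rich entry sites and tethers the complex there. GAF, the GAGA factor, also recognises GA-rich DNA and opens chromatin at many promoters across all chromosomes.

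Depletion of the targeted protein could be checked in part. The CLAMP immunoprecipitations yielded 749 and 430 peaks on the arms under CLAMP RNAi, against 7524 and 7417 under GAF RNAi and 2178 to 10984 under GFP RNAi, so both CLAMP RNAi lists were below all others. The GAF immunoprecipitations gave no such separation, with 4220 and 18267 peaks under GAF RNAi, 3320, 3059 and 4568 under CLAMP RNAi and 2676 to 29233 under GFP RNAi. The number of GAF peaks thus does not show the depletion of GAF. Read depth behind all lists is unknown. Of the MSL3 lists, CLAMP RNAi replicate 2 stands apart with 103 regions and no region on 3R or 4, CLAMP RNAi replicate 3 stands apart from its group with 12136 regions, and GAF RNAi replicate 3 stands apart from its group in where its strongest regions lie. GFP RNAi MSL3 lists hold 26306, 10572, 668 and 31717 regions, and replicate 4 of these shares none of its strongest 103 regions with the X landmarks described next.

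The landmarks come from GFP RNAi libraries, outside the contrast. A strong X region is a merged MSL3 region on X that is among the 103 strongest regions of at least 2 GFP RNAi lists. There are 96 of them, with a median width of 3856 bp, and 95 hold a CLAMP site of GFP RNAi cells. CLAMP sites and GAF sites are merged peaks called in at least 2 GFP RNAi libraries of that antibody. On X, 465 CLAMP sites overlap no GAF site (CLAMP-alone), 301 overlap one (CLAMP-with-GAF) and 311 GAF sites overlap no CLAMP site (GAF-alone). A landmark was counted as called or covered when an MSL3 region shared at least 1 bp with it.

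MSL3 regions were far fewer in CLAMP RNAi than in GAF RNAi cells, on X and on autosomes alike. The lists held 984, 103 and 12136 regions in CLAMP RNAi, against 33316, 22922 and 18519 in GAF RNAi. Every CLAMP RNAi list was shorter than every GAF RNAi list, and the lengths within CLAMP RNAi were themselves widely scattered. The geometric mean was 1071 regions in CLAMP RNAi and 24183 in GAF RNAi, 22.6-fold fewer. The log2 number averaged 10.07 ± 3.44 in CLAMP RNAi and 14.56 ± 0.43 in GAF RNAi (SD, n = 3 each), a difference of −4.50 with an exact permutation p of 0.1 (adjusted over 14 tests on whole lists, 0.2). With 3 libraries against 3, 0.1 is the smallest two-sided p that this test allows, so no comparison between these groups could pass 0.05. Without CLAMP RNAi replicate 2 the log2 difference was −2.81. A stricter limit, a −log10 p of at least 2, left 1, 1 and 326 regions in CLAMP RNAi, against 3107, 4785 and 449 in GAF RNAi, a log2 difference of −8.10.

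The amount of chromosome inside MSL3 regions showed the same order. On X, 0.150, 0.0331 and 1.09 Mb lay inside regions in CLAMP RNAi, against 3.34, 1.93 and 1.21 Mb in GAF RNAi. CLAMP RNAi replicate 3 came close to GAF RNAi replicate 3, but the groups did not overlap. The means were 0.426 ± 0.582 Mb in CLAMP RNAi and 2.16 ± 1.08 Mb in GAF RNAi (SD, n = 3 each), a difference of −1.73 Mb with an exact permutation p of 0.1 (adjusted 0.2), and of −1.15 Mb without GAF RNAi replicate 1. Autosomal coverage was 0.687, 0.0358 and 12.03 Mb in CLAMP RNAi, against 26.7, 26.5 and 19.6 Mb in GAF RNAi, with an exact permutation p of 0.1 (adjusted 0.2) and no overlap. At a −log10 p of at least 2 the differences were −0.787 Mb on X and −3.02 Mb on autosomes. Region width did not separate the groups. The median was 622.5, 402 and 798 bp in CLAMP RNAi and 625, 819 and 766 bp in GAF RNAi, with an exact permutation p of 0.4 (adjusted 0.431).

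**Figure D1:**
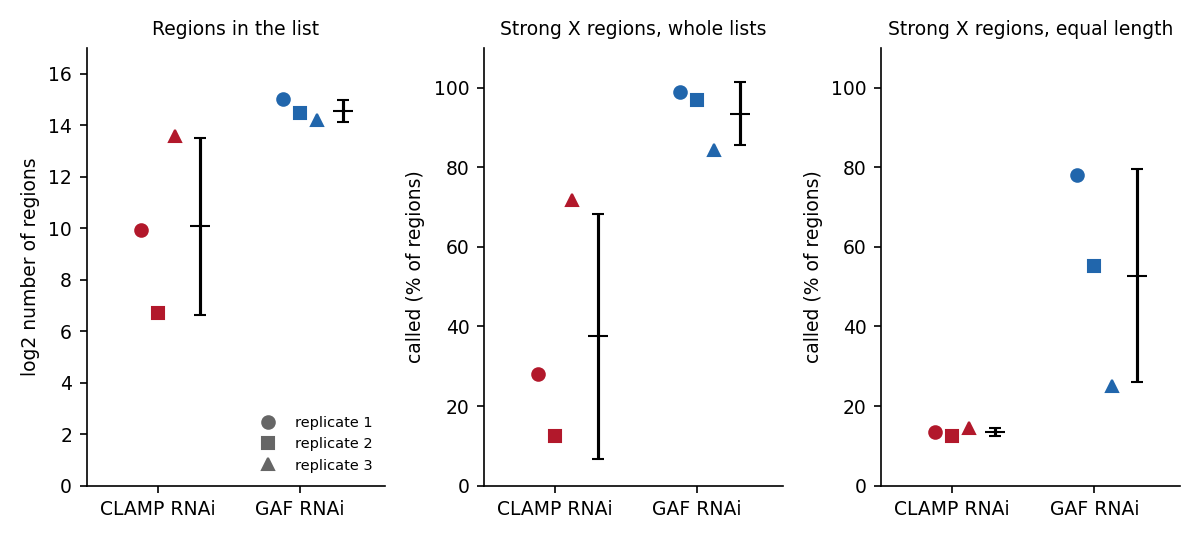
The panels plot, for each of the 3 CLAMP RNAi and 3 GAF RNAi libraries, the log2 number of MSL3 regions, the percentage of the 96 strong X regions called in whole lists, and the same percentage in lists of 103 regions; bars are the mean ± SD. In each panel every CLAMP RNAi library lies below every GAF RNAi library, and at equal length the CLAMP RNAi libraries span 12.5% to 14.6%, against 25% to 78.1% for GAF RNAi.

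The strong X regions, where MSL3 is most enriched in control cells, were called less often in CLAMP RNAi. Of the 96, 27, 12 and 69 were called in CLAMP RNAi replicates 1, 2 and 3, against 95, 93 and 81 in GAF RNAi. All 3 CLAMP RNAi libraries lay below all 3 GAF RNAi libraries, though replicate 3 of CLAMP RNAi called most of them. The share averaged 37.5% ± 30.8 in CLAMP RNAi and 93.4% ± 7.89 in GAF RNAi (SD, n = 3 each), a difference of −55.9 percentage points with an exact permutation p of 0.1 (adjusted 0.2). Of all merged regions called in at least 2 of the 6 libraries, CLAMP RNAi lists called 3.78%, 0.297% and 42.8%. GAF RNAi lists called 92.4%, 76.0% and 62.5% of those, a difference of −61.4 points. The lower share in CLAMP RNAi was thus not particular to the strong X regions. GFP RNAi replicates 1 to 4 called 96, 93, 96 and 51 of them, with replicates 1 to 3 fixed near the top by how the landmarks were chosen.

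Less of the length of the strong X regions lay inside MSL3 calls in CLAMP RNAi. On average 8.42%, 1.602% and 35.6% of their bases were covered in CLAMP RNAi, against 93.0%, 58.3% and 46.1% in GAF RNAi, uncalled regions counted as 0. The groups did not overlap, with means of 15.2% ± 18.0 and 65.8% ± 24.3 (SD, n = 3 each; exact permutation p = 0.1, a measure added to those planned), but this largely restates how many were called. Among called regions alone, the median share of bases covered was 21.5%, 7.95% and 47.1% in CLAMP RNAi, against 98.7%, 54.5% and 55.0% in GAF RNAi, so that CLAMP RNAi replicate 3 came close to GAF RNAi replicates 2 and 3. The deposited fold enrichment of the called ones had a median of 1.72, 1.70 and 1.43 in CLAMP RNAi and 2.14, 2.104 and 2.24 in GAF RNAi. Fold enrichment is a ratio that each library's own background sets, so this is a description of the lists. The median over all regions of a list was 1.599, 1.62 and 1.34 in CLAMP RNAi and 1.37, 1.62 and 1.89 in GAF RNAi, and thus the strong X regions stood less far above the rest of the list in CLAMP RNAi replicates 1 to 3 than in GAF RNAi replicates 1 to 3.

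**Figure D2:**
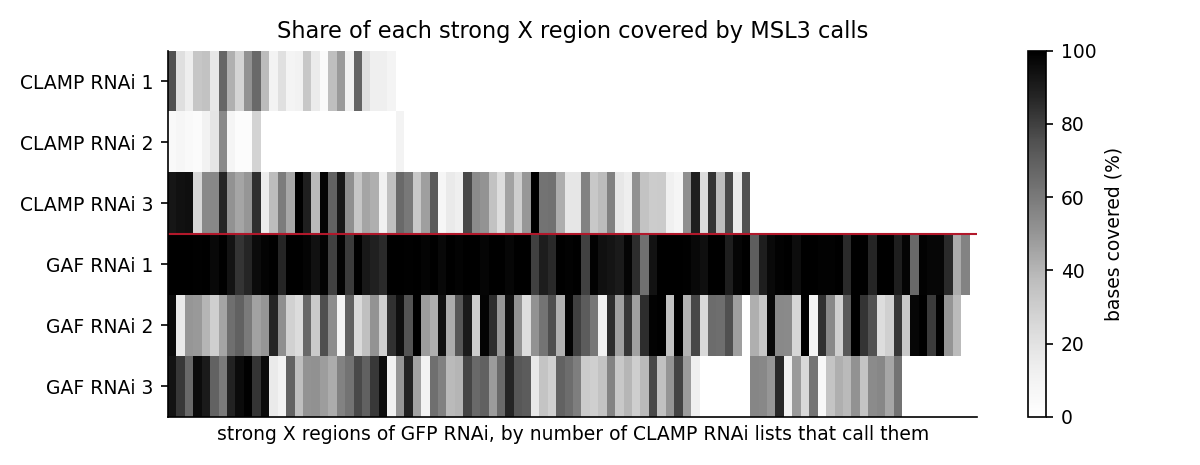
Each column is 1 of the 96 strong X regions, each row a library, and the grey level gives the percentage of the region's bases inside MSL3 regions; columns are ordered by the number of CLAMP RNAi lists that call the region. The GAF RNAi rows are filled to a mean of 93.0%, 58.3% and 46.1%, and the CLAMP RNAi rows to 8.42%, 1.602% and 35.6%.

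Among themselves, the strong X regions differed in how many CLAMP RNAi lists still called them. Of the 96, 11 were called in all 3 CLAMP RNAi lists, 17 in 2, 41 in 1 and 27 in none. In GAF RNAi, 81 were called in all 3 lists and 1 in none. As a background, 37 of the 33228 regions merged over the 6 libraries had a call from each CLAMP RNAi list. A call from each GAF RNAi list was present for 8280. The 37 had a median width of 7395 bp and the 8280 one of 2828.5 bp. Strong X regions called in more CLAMP RNAi lists were wider. Median widths were 2670 bp for those in no CLAMP RNAi list and 3558 bp for those in 1. They were 5639 bp for those in 2 and 8387 bp for those in all 3. A wider region has more bases that a call can touch, and the part of width in this order was not tested. A GAF site was present in 2 of the 27, 6 of the 41, 4 of the 17 and 2 of the 11. Called in all GAF RNAi and no CLAMP RNAi libraries were 18 (18.8%), beside 11.6% of all 33228 merged MSL3 regions of the 6 libraries. More GAF RNAi than CLAMP RNAi libraries called 83 of the 96 (86.5%), beside 91.0% of all merged regions, and no strong X region was called in more CLAMP RNAi than GAF RNAi libraries, beside 3.97% of all merged regions. The share called in more GAF RNAi libraries is near that background, and the strong X regions are wider than all merged regions, whose median width is 1069 bp.

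The 10 highest-ranked strong X regions show what this looks like at single places. The first, at X 12804138 to 12805858 (dm3, 1-based, as are all positions here), lay in no MSL3 region of CLAMP RNAi replicates 1 and 2 and had a fold enrichment of 1.39 in replicate 3, against 3.55, 2.42 and 2.48 in GAF RNAi. It held the highest fold enrichment of the whole list in GAF RNAi replicate 1 and ranked 2381 in CLAMP RNAi replicate 3. The region at X 15693798 to 15696283 was likewise called in CLAMP RNAi replicate 3 only, at 1.37, against 2.55, 2.91 and 1.94 in GAF RNAi. The region at X 9250809 to 9252411 was called in no CLAMP RNAi library and at 2.46, 2.47 and 2.24 in GAF RNAi. At X 12654549 to 12655475, the narrowest of the 10, no CLAMP RNAi library and only GAF RNAi replicates 1 and 2 had a call, at 2.40 and 1.57.

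Others of the 10 were called in more CLAMP RNAi libraries. At X 2234453 to 2238603 the fold enrichment was 1.82, 1.77 and 1.52 in CLAMP RNAi, against 2.26, 2.42 and 2.65 in GAF RNAi. At X 10742889 to 10748638 it was 1.68, 1.96 and 1.57 in CLAMP RNAi, against 2.38, 1.84 and 2.27 in GAF RNAi. Both regions were called in all 6 libraries, and at the second of them the groups overlapped. X 7212111 to 7217749 and X 1971000 to 1974349 were called in CLAMP RNAi replicates 1 and 3, at 1.78 and 1.78 and at 1.84 and 1.29, against 2.56, 2.80 and 2.26 and against 2.27, 1.68 and 2.42 in GAF RNAi. X 19633804 to 19638044 and X 18547435 to 18550992 were called in CLAMP RNAi replicate 3 alone, at 1.38 and 1.52, and in all 3 GAF RNAi libraries. All 10 hold a CLAMP site, and 2 of them, X 1971000 to 1974349 and X 7212111 to 7217749, also a GAF site.

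In whole lists the X chromosome took no smaller share in CLAMP RNAi. On X lay 10.7%, 40.8% and 6.67% of the regions in CLAMP RNAi, against 6.71%, 6.98% and 5.21% in GAF RNAi, where X spans 18.6% of the arms. The high value belongs to CLAMP RNAi replicate 2, with 42 of 103 regions on X, and CLAMP RNAi replicate 3 lay inside the GAF RNAi range. The means were 19.4% ± 18.6 in CLAMP RNAi and 6.30% ± 0.952 in GAF RNAi (SD, n = 3 each), a difference of +13.1 percentage points with an exact permutation p of 0.3 (adjusted 0.35), and of +2.37 without CLAMP RNAi replicate 2. By bases, X took 17.9%, 48.1% and 8.34% in CLAMP RNAi and 11.1%, 6.80% and 5.84% in GAF RNAi (exact permutation p = 0.2, adjusted 0.28), with a difference of +16.9 points that was +5.23 without CLAMP RNAi replicate 2. When only regions with a −log10 p of at least 2 were kept, both differences changed sign, to −6.70 and −14.3 points, but then the single regions left in CLAMP RNAi replicates 1 and 2 were both autosomal.

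Because a longer list reaches further into weak regions, each list was also cut to its 103 strongest regions, the length of the shortest. The order then went the other way for 2 of the 3 GAF RNAi libraries. On X lay 26.2%, 40.8% and 23.3% of the 103 in CLAMP RNAi, against 95.1%, 79.6% and 27.2% in GAF RNAi. GAF RNAi replicate 3 lay inside the CLAMP RNAi range. The means were 30.1% ± 9.36 in CLAMP RNAi and 67.3% ± 35.6 in GAF RNAi (SD, n = 3 each), a difference of −37.2 points with an exact permutation p of 0.2 (adjusted over 6 tests on equal-length lists, 0.2). Without CLAMP RNAi replicate 2, where the lists are cut at 984, the difference was −9.94 points. Leaving out GAF RNAi replicate 1 gave −23.3 points and leaving out GAF RNAi replicate 3 gave −57.3.

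**Figure D3:**
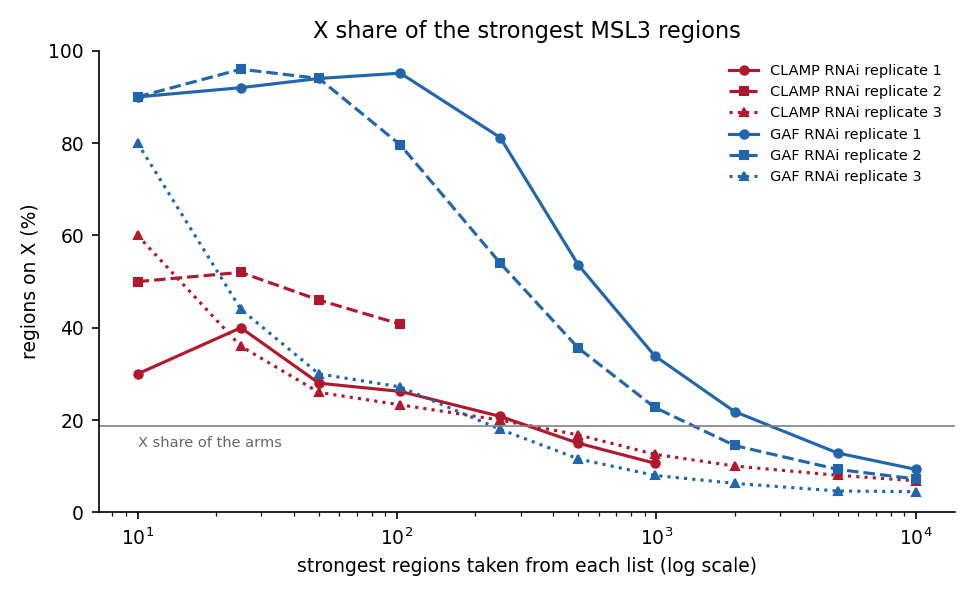
The percentage of regions on X is plotted for the strongest 10 to 10000 regions of each list on a log axis (CLAMP RNAi in red, GAF RNAi in blue; grey line, the X share of the arms, 18.6%). At 10 regions CLAMP RNAi lists have 30% to 60% on X and GAF RNAi lists 80% to 90%. GAF RNAi replicate 3 lies inside the CLAMP RNAi range at 25, 50 and 103 regions (44%, 30% and 27.2%). From 250 regions on it lies below the CLAMP RNAi lists that are long enough.

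The shift of the X share with rank was followed down the lists. Among the 10 strongest regions, 30%, 50% and 60% lay on X in CLAMP RNAi, against 90%, 90% and 80% in GAF RNAi, without overlap. Among the 250 strongest it was 20.8% and 20% in CLAMP RNAi replicates 1 and 3, against 81.2%, 54% and 18% in GAF RNAi. Among regions ranked 985 to 12136 the share was 6.14% in CLAMP RNAi replicate 3 and 6.35%, 5.42% and 5.16% in GAF RNAi. The groups thus lay apart among the 10 strongest regions, but GAF RNAi replicate 3 joined the CLAMP RNAi lists soon after. It had 44% on X at 25 regions, against 40%, 52% and 36% in CLAMP RNAi. At 50 regions it had 30%, against 28%, 46% and 26%. In the long tails, reached in CLAMP RNAi by replicate 3 alone, the shares were alike and below the X share of the arms. The head of the GAF RNAi lists also carried more evidence per region: a q below 0.05 was reached by 0, 0 and 1 regions in CLAMP RNAi and by 223, 335 and 0 regions in GAF RNAi. These q values grow with depth, which is unknown, and GAF RNAi replicate 3 had none.

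At equal length the strong X regions again lay apart. Of the 96, 13, 12 and 14 were called in CLAMP RNAi, against 75, 53 and 24 in GAF RNAi, so that the CLAMP RNAi libraries were close together and below all GAF RNAi libraries. The shares averaged 13.5% ± 1.04 in CLAMP RNAi and 52.8% ± 26.6 in GAF RNAi (SD, n = 3 each), a difference of −39.2 percentage points with an exact permutation p of 0.1 (adjusted 0.15), and of −22.6 points in lists of 50 regions. The regions kept on X also differed in whether they held a CLAMP site. They did so for 44.4%, 28.6% and 70.8% of X regions in CLAMP RNAi, against 94.9%, 85.4% and 82.1% in GAF RNAi. The groups did not overlap, and the means were 47.9% ± 21.3 in CLAMP RNAi and 87.5% ± 6.63 in GAF RNAi (SD, n = 3 each; difference −39.5 points, exact permutation p = 0.1, adjusted 0.15). Median widths at this length were 686, 402 and 1632 bp in CLAMP RNAi and 3483, 1588 and 2564 bp in GAF RNAi, with CLAMP RNAi replicate 3 above GAF RNAi replicate 2 (exact permutation p = 0.2, adjusted 0.2). The part of width in these overlaps was not tested. In whole lists the share of X regions at a CLAMP site ran the other way, 27.6%, 28.6% and 14.3% in CLAMP RNAi against 14.01%, 15.8% and 11.3% in GAF RNAi, with CLAMP RNAi replicate 3 between the GAF RNAi values (exact permutation p = 0.2, adjusted 0.28).

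CLAMP sites on X were covered by MSL3 regions less often in CLAMP RNAi for 2 of 3 libraries. Of the 465 CLAMP-alone sites, 5.59%, 2.58% and 21.9% were covered in CLAMP RNAi, against 57.6%, 44.9% and 20% in GAF RNAi. CLAMP RNAi replicate 3 lay just above GAF RNAi replicate 3, so the groups overlapped. The means were 10.04% ± 10.4 in CLAMP RNAi and 40.9% ± 19.1 in GAF RNAi (SD, n = 3 each), a difference of −30.8 percentage points with an exact permutation p of 0.2 (adjusted 0.28). In equal-length lists the same sites were covered to 2.15%, 2.58% and 3.44% in CLAMP RNAi and to 21.9%, 13.5% and 4.95% in GAF RNAi, without overlap. The difference there was −10.8 points with an exact permutation p of 0.1 (adjusted 0.15), −19.7 without CLAMP RNAi replicate 2 at the longer cut of 984 and −6.52 without GAF RNAi replicate 1. In lists of 50 regions it was −5.09 points.

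Sites bound by GAF in control cells, with or without CLAMP, also had lower coverage in CLAMP RNAi, and so on average did their surroundings. Of the 301 CLAMP-with-GAF sites on X, 0.997%, 0% and 5.32% were covered in CLAMP RNAi, against 32.2%, 20.9% and 6.31% in GAF RNAi. The groups did not overlap, though the third replicates were within 1 percentage point of each other. The difference of means was −17.7 points with an exact permutation p of 0.1 (adjusted 0.2), and −11.5 points without GAF RNAi replicate 1. Of the 311 GAF-alone sites on X, 0.322%, 0.322% and 2.89% were covered in CLAMP RNAi, against 19.9%, 15.8% and 5.79% in GAF RNAi (difference −12.6 points, exact permutation p = 0.1, adjusted 0.2). At a −log10 p of at least 2 the differences were −10.3 points at CLAMP-with-GAF sites and −3.11 points at GAF-alone sites. In the flank 15 to 20 kb from the centres of CLAMP-with-GAF sites, the percentage inside MSL3 regions averaged 3.32 in CLAMP RNAi and 15.6 in GAF RNAi (difference −12.3 points). The groups overlapped there, with CLAMP RNAi replicate 3 at 8.34 and GAF RNAi replicate 3 at 8.17. For GAF-alone sites the flank averaged 3.50 in CLAMP RNAi and 15.5 in GAF RNAi (difference −12.0), without overlap. Autosomal CLAMP-alone sites, 932 in number, were covered to 0.751%, 0% and 10.7% in CLAMP RNAi and to 25.6%, 34.3% and 12.98% in GAF RNAi. The 1574 autosomal GAF-alone sites were covered to 1.72%, 0.191% and 6.16% in CLAMP RNAi and to 30.2%, 30.2% and 22.7% in GAF RNAi.

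**Figure D4:**
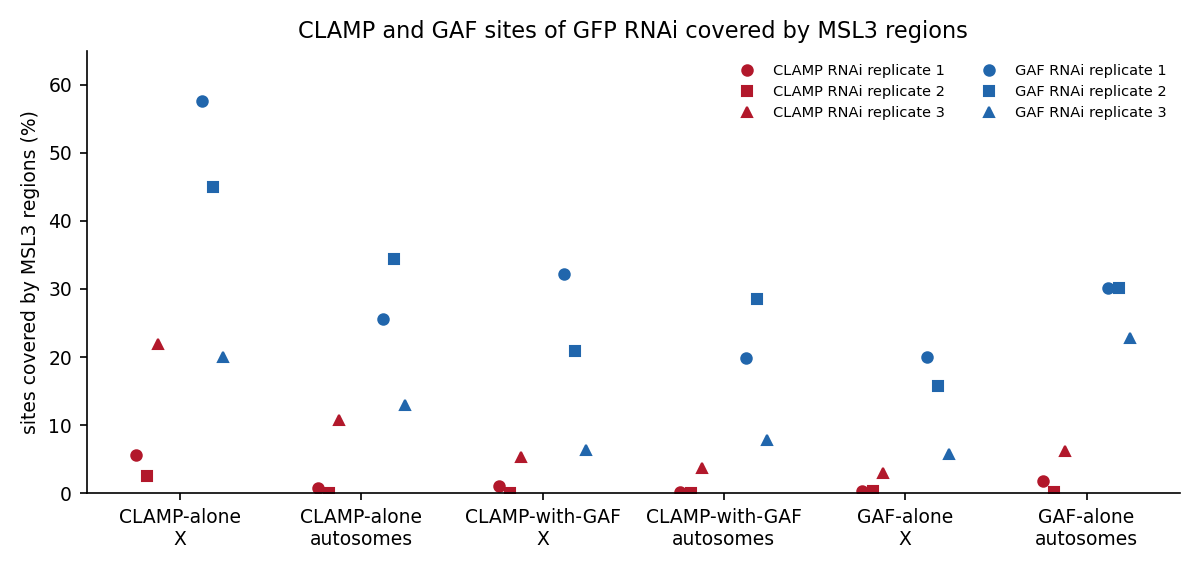
The percentage of sites covered by MSL3 regions is plotted per library for CLAMP-alone, CLAMP-with-GAF and GAF-alone sites of GFP RNAi cells on X and on autosomes (CLAMP RNAi in red, left of GAF RNAi in blue). GAF RNAi replicates 1 and 2 lie above every CLAMP RNAi library in all 6 classes, while the third replicates lie close together at X CLAMP-alone sites (21.9% in CLAMP RNAi and 20% in GAF RNAi).

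The excess of X over autosomes at CLAMP-alone sites did not separate the groups. Coverage on X minus that on autosomes was 4.84, 2.58 and 11.2 percentage points in CLAMP RNAi, against 32.0, 10.6 and 7.02 in GAF RNAi, so all 6 libraries had more on X. The means were 6.21 ± 4.47 points in CLAMP RNAi and 16.5 ± 13.5 in GAF RNAi (SD, n = 3 each; difference −10.3, exact permutation p = 0.3, adjusted 0.35), and the difference was −2.61 without GAF RNAi replicate 1 and −22.6 at a −log10 p of at least 2. For reference regions, the merged regions called in at least 2 of the 6 libraries, recovery separated the groups but its excess on X over autosomes did not. Whole lists recovered 3.78%, 0.297% and 42.8% of them in CLAMP RNAi, against 92.4%, 76.0% and 62.5% in GAF RNAi, without overlap (difference −61.4 points, exact permutation p = 0.1, adjusted 0.2), and a long list both defines and recovers more of them. The recovery of X reference regions exceeded that of autosomal ones by 1.70, 1.25 and 2.26 points in CLAMP RNAi and 5.08, 1.24 and −14.1 points in GAF RNAi. Its difference of +4.34 points had an exact permutation p of 0.7 (adjusted 0.7) and rests on GAF RNAi replicate 3, since it was +0.922 without that library. Leaving out GAF RNAi replicate 1 gave +13.3 points, leaving out replicate 2 gave +8.66, and a −log10 p of at least 2 gave −6.80. With reference regions taken from GFP RNAi lists it was +2.39. In the equal-length lists recovery was 32.7%, 30.1% and 23.0% in CLAMP RNAi, against 67.3%, 62.8% and 33.6% in GAF RNAi (difference −26.0 points, exact permutation p = 0.1, adjusted 0.15), but this difference moved with single GAF RNAi libraries. It was +4.10 points without GAF RNAi replicate 1, −6.01 without replicate 2 and −42.3 without replicate 3 of that group, and −7.96 without CLAMP RNAi replicate 2, where the cut is also longer, at 984 regions. Against all reference regions of whole GFP RNAi lists it was −0.209 points.

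At X CLAMP-alone sites, MSL3 calls were more frequent at the centre than in the flank 15 to 20 kb away in all 6 libraries, at very different heights. The site centre lay inside an MSL3 region at 4.30%, 1.08% and 18.5% of these sites in CLAMP RNAi, against 51.8%, 39.4% and 15.5% in GAF RNAi. At 15 to 20 kb from the centre the percentage was 1.67, 0.381 and 6.65 in CLAMP RNAi and 22.2, 12.01 and 8.70 in GAF RNAi. The centre exceeded the flank by 2.63, 0.694 and 11.8 percentage points in CLAMP RNAi, against 29.6, 27.3 and 6.78 in GAF RNAi, and CLAMP RNAi replicate 3 lay above GAF RNAi replicate 3. In GAF RNAi replicate 3 some positions within a few kb of the centre were higher than the centre itself, and the line of CLAMP RNAi replicate 2 rests on so few sites that positions further out reach its centre value. The difference of means was −16.2 points with an exact permutation p of 0.2 (adjusted over 4 site classes, 0.4). As a ratio, the centre was 2.57, 2.82 and 2.78 times the flank in CLAMP RNAi. In GAF RNAi it was 2.33, 3.28 and 1.78 times the flank, so the ratios overlapped, and they were not tested. At the other site classes the centre did not stand above the flank throughout: for X GAF-alone sites the excess averaged −3.07 ± 3.93 points in CLAMP RNAi and −6.06 ± 4.12 in GAF RNAi (SD, n = 3 each; exact permutation p = 0.4, adjusted 0.5).

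**Figure D5:**
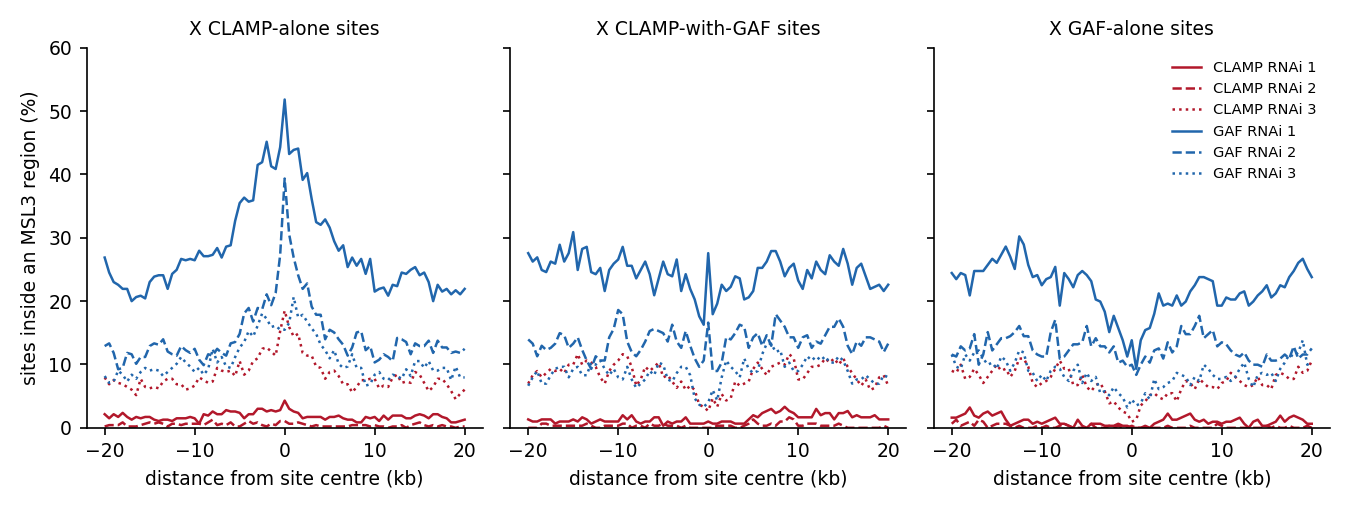
The percentage of X sites that lie inside an MSL3 region is plotted against the distance from the site centre, from −20 to 20 kb in steps of 500 bp, for CLAMP-alone, CLAMP-with-GAF and GAF-alone sites (CLAMP RNAi in red, GAF RNAi in blue). At CLAMP-alone sites all 6 lines are higher at the centre than in the flank at 15 to 20 kb, with centre values from 1.08% in CLAMP RNAi replicate 2 to 51.8% in GAF RNAi replicate 1, and the third replicates of both groups run close together.

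Merged over the 6 libraries, the lists gave 33228 MSL3 regions. Of these, 3857 (11.6%) were called in all GAF RNAi and no CLAMP RNAi libraries and 0 (0%) in all CLAMP RNAi and no GAF RNAi libraries. These counts follow the list lengths: the first was 7838 without CLAMP RNAi replicate 3, was 8116 and 8101 when GAF RNAi replicate 2 or 3 was left out, and was 44 at a −log10 p of at least 2. The 3857 regions were mostly autosomal. Of them, 156 (4.04%) lay on X, beside 7.39% of all merged regions, and 147 (3.81%) held a CLAMP site, beside 3.79% of all. Of the 156 on X, 57 (36.5%) held a CLAMP site, beside 13.9% of all merged X regions, but the 3857 had a median width of 2090 bp and all merged regions one of 1069 bp.

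The 10 best-ranked regions of that set, by fold enrichment over the GAF RNAi lists, were all on X and all held a CLAMP site, and 3 of them also a GAF site. X 6428113 to 6431914 had a fold enrichment of 2.54, 2.35 and 2.30 in GAF RNAi replicates 1 to 3. X 2014446 to 2017752 had 2.34, 2.28 and 2.33, and X 1407246 to 1411665 had 2.06, 2.49 and 2.28. Regions found only in CLAMP RNAi were narrow, with a median width of 530 bp, and few lay on X. Of 1295 merged regions called in CLAMP RNAi libraries only, 37 (2.86%) lay on X, beside 7.39% of all merged regions. A CLAMP site was held by 20 (1.54%), none of these on X, beside 3.79% of all. Of the 22346 merged regions called in GAF RNAi libraries only, 8.05% lay on X and 3.75% held a CLAMP site. Their median width was 784 bp, and the part of width in these shares was not tested. Without CLAMP RNAi replicate 2, 5 regions were called in both other CLAMP RNAi libraries and no GAF RNAi library, 3 of them on 3L and none at a CLAMP or GAF site.

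Common ground existed. All 6 libraries called 33 of the 33228 merged regions. Of the 33, 15 (45.5%) lay on X, beside 7.39% of all merged regions. A CLAMP site was held by 12 (80%) of these 15, beside 13.9% of all merged X regions. The 10 best-ranked were 6 on X, all with a CLAMP site, and 4 on 2L and 2R, none with a CLAMP site and 3 with a GAF site. X 19533211 to 19536843, a place with both factors, had a fold enrichment of 1.87, 1.99 and 1.64 in CLAMP RNAi, against 2.44, 1.88 and 2.20 in GAF RNAi, and the groups overlapped. On 2L, the 13625 bp at 8429751 to 8443375 had 1.79, 1.83 and 1.44 in CLAMP RNAi, against 1.498, 1.80 and 2.19 in GAF RNAi, again with overlap. The 33 regions are broad, with a median width of 7395 bp, beside 1069 bp for all merged regions.

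At equal length few places were called in all libraries of 1 group and in none of the other. The 6 cut lists merged to 410 regions, of which 3 (0.732%) were called in all GAF RNAi and no CLAMP RNAi libraries and 4 (0.976%) in all CLAMP RNAi and no GAF RNAi libraries. Both counts are near 0. The first was 6, 10 and 46 when GAF RNAi replicate 1, 2 or 3 was left out, and the second was 13 without CLAMP RNAi replicate 3, all with lists of 103 regions. Leaving out CLAMP RNAi replicate 2 also lengthens the lists to 984 regions, and the counts were then 20 and 32, where the library and the longer cut cannot be told apart. The 3 are X 2338813 to 2344233, X 5507724 to 5512822 and X 12804148 to 12805857, each with a CLAMP site and no GAF site. The last is the first-ranked strong X region already described. The other 4 lie on 2L (2 regions, near each other), 2R and X, none at a CLAMP site, and all 4 were also called in every whole GAF RNAi list. The 1 on X, at 1765961 to 1773295, had a fold enrichment of 1.86, 1.88 and 1.34 in CLAMP RNAi and of 1.41, 1.39 and 2.11 in GAF RNAi. Regions in at least 2 cut lists of a group numbered 28 in CLAMP RNAi, 17 (60.7%) on X and 13 (46.4%) at a CLAMP site. In GAF RNAi they numbered 76, with 71 (93.4%) on X and 69 (90.8%) at a CLAMP site. Of all 410 merged regions, 148 (36.1%) lay on X and 126 (30.7%) held a CLAMP site, so both groups were above that background. Median widths were 5405.5 bp for the 28, 3780 bp for the 76 and 1594.5 bp for the 410.

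The single region with the highest fold enrichment was the same place in all 3 CLAMP RNAi libraries, and it was not on X. It lies on 3L between 673025 and 673753, at a site of both CLAMP and GAF in GFP RNAi cells, with a fold enrichment of 2.19, 2.30 and 2.07. In GAF RNAi the same place had 1.90, 1.80 and 1.89 and ranked 127, 3552 and 9266 in its lists, so all 3 GAF RNAi values lay below all 3 CLAMP RNAi values. It was singled out because it ranked first in CLAMP RNAi, and this order is thus a description with no test. The top regions of GAF RNAi replicates 1, 2 and 3 lay on X at 12804148 to 12805857, 3843070 to 3847178 and 1774691 to 1775323, all at CLAMP sites.

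Among the arms, 2L and 2R were the ones whose share of regions did not overlap between groups. On 2L lay 31.6%, 27.2% and 25.5% of the regions in CLAMP RNAi, against 22.2%, 22.9% and 20.7% in GAF RNAi (difference +6.16 points, exact permutation p = 0.1, adjusted over 6 arms 0.3), but the difference was −16.7 points at a −log10 p of at least 2, with 1 region left in 2 of the CLAMP RNAi lists. On 2R lay 13.7%, 15.5% and 18.6% in CLAMP RNAi, against 19.7%, 18.9% and 23.0% in GAF RNAi (difference −4.60 points, exact permutation p = 0.1, adjusted 0.3, and −11.1 points at a −log10 p of at least 2). On 3R lay 15.3%, 0% and 30.1% in CLAMP RNAi, against 29.2%, 29.1% and 31.5% in GAF RNAi (exact permutation p = 0.3, adjusted 0.45), with a difference of −14.8 points that was −7.22 without CLAMP RNAi replicate 2 and −22.3 without CLAMP RNAi replicate 3. The differences on 3L (+0.0830 points) and on 4 (+0.0702 points) were far inside the spread, each with an exact permutation p of 1 (adjusted 1).

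How far the lists of one group contain those of the other was given by shares of each. Of the regions in CLAMP RNAi replicates 1, 2 and 3, 67.3%, 78.6% and 75.2% overlapped a region of GAF RNAi replicate 1. GAF RNAi replicate 3 held 76.5%, 83.5% and 36.2% of them. In the other direction, CLAMP RNAi replicate 3 held 31.0%, 36.0% and 24.6% of the regions in GAF RNAi replicates 1, 2 and 3. CLAMP RNAi replicate 1 shared 38.4% of its regions with CLAMP RNAi replicate 3, less than with any GAF RNAi list, all of which are longer. No pair of lists across the groups held an identical region.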

How the data were processed

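MSL3 ChIP-seq lists of 3 CLAMP RNAi and 3 GAF RNAi libraries were compared; lists of the other antibodies and of GFP RNAi gave landmarks and checks, and 12 inputs were not used here. Per the submitters' processing notes, the authors used Bowtie and, to call 1 list per library, MACS2 2.1.1, with dm3 as the build; the options and control given to MACS2 are not given in the sources used here. In the deposited lists each region carries a fold enrichment (ratio), a −log10 p and a −log10 q of its own library. In the deposited lists the lowest −log10 p of an MSL3 region is about 1. Read depth is unknown, so no counting interval is given.

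Regions sharing at least 1 bp were merged. For equal-length lists, regions were sorted by −log10 q, with −log10 p and then fold enrichment breaking ties. Group means were compared by exact two-sided permutation over libraries (20 assignments, smallest p 0.1), with Benjamini-Hochberg adjustment within 14 whole-list, 6 equal-length and 6 arm tests. Sites were named by rule: the 10 strong X regions best ranked in GFP RNAi replicates 1 to 3, the 10 best-ranked regions called in all libraries of 1 group only, the 10 best-ranked in all 6, and the top region of each list. The 5 regions found without CLAMP RNAi replicate 2 and the equal-length regions were named after their values were seen. The comparison, landmarks and lists were chosen with earlier results of these data known; the centre profile, the covered bases and a cut at 50 regions were added after seeing the data. The gene table at hand is of another genome release, so no genes are named and no sequence is shown. Python 3.11.15, numpy 2.4.6, pandas 2.3.3, scipy 1.17.1 and matplotlib 3.10.9 were used. Overlap counting was tested on simulated data, with 0 wrong of 998 overlaps.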

Additional observations from a re-analysis of the deposited data

Results flagged for a closer look

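A share of 9.65% of the MSL3 regions of CLAMP RNAi replicate 2 lay outside the 6 arms, on unplaced or heterochromatic sequences of dm3, where no GFP RNAi MSL3 list exceeded 3.33%. This is 11 of 114 regions, 4 on 3LHet and 7 on U. The other CLAMP RNAi lists had 2.96% and 3.11% there, and the GAF RNAi lists 1.56%, 1.03% and 0.867%. These sequences enter none of the comparisons above.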

How the results depend on the processing

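Of 242 alternative values of 25 tested results, 233 kept their direction, and 18 results never changed sign. The 242 include 25 replicate-block values, which repeat the main differences and so could not change direction. No value passed 0.05 (the lowest p was 0.1), and none could, because the smallest p these tests allow is 0.1. At a −log10 p of at least 2 the difference changed sign for the X share of regions (−6.70 points), of bases (−14.3), recovery on X minus autosomes (−6.80) and the 2L share (−16.7), and the regions of all GAF RNAi and no CLAMP RNAi libraries numbered 44; 2 CLAMP RNAi lists then hold 1 region each. Equal-length lists were not formed there, and a −log10 q limit of 1.3 was not run, because lists were left with too few regions. In equal-length lists the count of all GAF RNAi and no CLAMP RNAi libraries was 6 with all sequences, 1 with the order by fold enrichment, 5 by p and 0 at 50 regions. The converse count was 1, 2 and 2 by fold enrichment, by p and at 50 regions. Leaving out 1 library at a time, differences ranged from −3.74 to 2.33 points for the 3L share, from −0.378 to 0.294 for the share on 4 and from −42.3 to 4.10 for equal-length recovery. The 4 counts then ranged from 3861 to 8116 and 0 to 5 in whole lists, and from 3 to 46 and 4 to 32 at equal length, the 32 at the longer cut of 984 regions. With the replicate number as a replicate block, the log2 difference in region number was −4.50 with an exact sign-flip p of 0.25, the smallest possible, and p was 0.25 to 1 over 25 results. Deviations of same-numbered libraries over 123 bins of 1 Mb correlated at −0.366, −0.122 and −0.192, and no library correlated best with its own number. No pairing by number was thus seen, but so few lists of such unequal length cannot exclude one. Unknown depth limits every comparison of list lengths, p and q.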
